A study of Mus musculus with 10 samples.

Results

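Mfsd2a and Fam13a are 2 of the 55421 genes in the count table of 10 mouse livers, and 2 of the 22449 genes that were tested. They were selected on measured values of these livers: both are genes that were high in every control liver, almost lost from the H3.3 KO livers, and partly kept in 1 KO liver. Their KO values are therefore given as a description, with no test. H3.3 is the histone H3 variant encoded by H3f3a and H3f3b. The KO livers (n = 4) came from male C57BL/6 mice with H3f3a fl/fl and H3f3b fl/fl alleles that received AAV8-Tbg-Cre, a virus that reaches the liver and expresses Cre recombinase from the hepatocyte promoter Tbg. The WT Cre controls (n = 3) were wild-type mice with the same virus, and the MCS controls (n = 3) were floxed mice with AAV8-Tbg-MCS, which carries no Cre. Injection was at 6 months of age, and tissue was collected 3 weeks after it. Cre acts in hepatocytes, so the other cells of a KO liver keep their H3.3 genes, and poly(A) RNA-seq of whole liver measured all of them together. For the floxed mice the genotype label gives HIRA while the titles give H3f3a and H3f3b, and the titles were followed.

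Mfsd2a encodes a membrane transporter of the major facilitator superfamily that takes up lysophosphatidylcholine with sodium, including the species that carry docosahexaenoic acid. It is best known from the endothelium of the blood-brain barrier, and in liver its RNA is known to rise during fasting, under PPARA and glucagon signalling. Fam13a encodes an intracellular protein that has been linked to turnover of beta-catenin, and human variants at FAM13A are associated with lung function and with body fat distribution.

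Mfsd2a (ENSMUSG00000028655.11) is a protein-coding gene on the minus strand of mm10, chr4:122946850-122961188, where GENCODE M21 annotates 4 transcripts with 2250 exonic bases in 15 merged blocks. Fam13a (ENSMUSG00000037709.13) is a protein-coding gene on the minus strand, chr6:58932090-59024549, with 5 annotated transcripts and 10505 exonic bases in 19 merged blocks. The promoters of both genes are shown because the genes were selected for a like pattern in KO. Each window, from RefSeq on GRCm38.p6, holds the 250 bases before and the 50 bases after the start of the gene, 5′ to 3′ on the minus strand. The Mfsd2a window is chr4:122961139-122961438 and the Fam13a window is chr6:59024453-59024752. Capitals mark AGGTCA, the half-site of many nuclear receptors, and ATTGG, the CCAAT box read on the opposite strand.
Mfsd2a promoter: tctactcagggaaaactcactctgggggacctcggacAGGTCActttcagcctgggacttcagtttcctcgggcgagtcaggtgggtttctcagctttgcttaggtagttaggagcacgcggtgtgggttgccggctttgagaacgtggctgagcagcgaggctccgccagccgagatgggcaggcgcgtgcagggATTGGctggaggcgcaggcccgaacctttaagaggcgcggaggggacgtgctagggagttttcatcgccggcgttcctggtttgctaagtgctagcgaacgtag
Fam13a promoter: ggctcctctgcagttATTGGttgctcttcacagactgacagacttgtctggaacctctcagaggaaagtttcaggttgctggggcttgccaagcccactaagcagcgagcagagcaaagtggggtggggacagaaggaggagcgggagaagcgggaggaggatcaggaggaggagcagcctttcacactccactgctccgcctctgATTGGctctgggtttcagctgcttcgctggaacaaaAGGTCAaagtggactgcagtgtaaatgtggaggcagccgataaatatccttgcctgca
Both windows held AGGTCA on the strand of the gene, 213 bases before the start of Mfsd2a and 8 bases before the RefSeq start of Fam13a. GENCODE M21 starts Fam13a further upstream, so by the coordinates given above this AGGTCA of Fam13a lies inside the gene. The CCAAT box 44 bases before the RefSeq start of Fam13a lies inside it too. AGGTCA, on either strand, was found in 16.3% of all 32851 promoters of that length. CCAAT, on either strand, occurred 1 time in the Mfsd2a window and 2 times in the Fam13a window, and in 37.4% of all promoters. The other 7 motifs searched on both strands had no match in either window: CACGTG (E-box, in 7.15% of all promoters), GGGCGG (GC box, 35.7%), TATAAA (a core promoter box, 13.6%), GTAAACA (FOXO site, 3.65%), TGACGTCA (cAMP response element, 1.79%), CAAAGTCCA (HNF4A site, 0.475%) and TTGCGCAA (C/EBP site, 0.183%). The Mfsd2a window was 60.3% G or C with 22 CpG dinucleotides and the Fam13a window 55.0% with 6, against medians of 52.7% and 7 over all promoters.

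Total counts were between 20862860 and 26096141 for controls and between 21485241 and 23619487 for KO 2 to 4, and KO 1 was the shallowest library at 14998426. Levels are given as CPM, the count relative to the TMM-adjusted library size. The columns of the tables call a control only by a number, and every value given for 1 kind of control rests on matching that number to the library names. The targeted genes fell in every KO liver. H3f3a stood at 59.9 to 63.7 CPM in the controls and at 16.0, 18.7, 16.0 and 19.0 CPM in KO 1 to 4 (log2 change -1.83, edgeR adjusted p 3.5e-08). H3f3b stood at 136 to 204 CPM in the controls and at 39.8, 53.7, 51.8 and 56.7 CPM in KO 1 to 4 (log2 change -1.66, edgeR adjusted p 3.62e-06). KO 1, the liver that kept part of both selected genes, thus had the lowest H3f3b of the 4 and an H3f3a within the range of the others. These whole-liver levels include cells other than hepatocytes, and the extent of deletion in the hepatocytes of each liver was not tested. The labels number the replicates without naming their mice, so p-values measure the spread between these livers.

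Mfsd2a was an abundant liver transcript in the controls. It stood at 126, 115 and 161 CPM in WT Cre 1 to 3 and at 241, 155 and 199 CPM in MCS 1 to 3. In KO 1 to 4 it stood at 26.6, 3.16, 1.56 and 5.12 CPM, from 409, 80, 37 and 134 counts against 2650 to 5918 counts in the controls. Every KO liver lay below every control, and KO 1 lay apart from the other KO livers by more than the whole range of those 3. The control mean was 166 ± 47.0 CPM (SD, n = 6), the 833rd highest of all genes tested, and the KO mean was 9.12 ± 11.8 CPM (SD, n = 4). KO 1 to 4 kept 16.0%, 1.90%, 0.939% and 3.09% of that control mean. Against the WT Cre mean of 134 ± 24.1 CPM the same livers kept 19.9%, 2.36%, 1.16% and 3.82%, and against the MCS mean of 198 ± 43.0 CPM they kept 13.5%, 1.60%, 0.787% and 2.59%. The log2 fold change was -4.22 against all controls, -3.93 against WT Cre and -4.49 against MCS. Without KO 1 it was -5.65 against all controls, so KO 1 moved the fold by more than 1.5 times.

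Fam13a was a moderately expressed gene in the controls. It stood at 34.5, 23.8 and 30.1 CPM in WT Cre 1 to 3 and at 30.4, 22.8 and 22.9 CPM in MCS 1 to 3. In KO 1 to 4 it stood at 3.58, 1.54, 1.26 and 1.34 CPM, from 55, 39, 30 and 35 counts against 410 to 828 counts in the controls. KO 1 was again the highest KO liver, the other 3 lay close together, and no KO liver reached the lowest control. The control mean was 27.4 ± 4.93 CPM (SD, n = 6) and the KO mean 1.93 ± 1.11 CPM (SD, n = 4). KO 1 to 4 kept 13.1%, 5.62%, 4.61% and 4.88% of the control mean. They kept 12.2%, 5.23%, 4.29% and 4.54% of the WT Cre mean of 29.5 ± 5.38 CPM, and 14.1%, 6.08%, 4.98% and 5.28% of the MCS mean of 25.4 ± 4.37 CPM. The log2 fold change was -3.88 against all controls, -3.99 against WT Cre, -3.78 against MCS and -4.31 against all controls without KO 1. Since Fam13a overlaps 3 genes on the other strand (Gm45060, BB365896 and Gm45061) and the strand setting of the counting was not stated, reads of the pairs cannot be told apart. Those 3 genes held at most 3 counts in any liver.

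**Figure D1:**
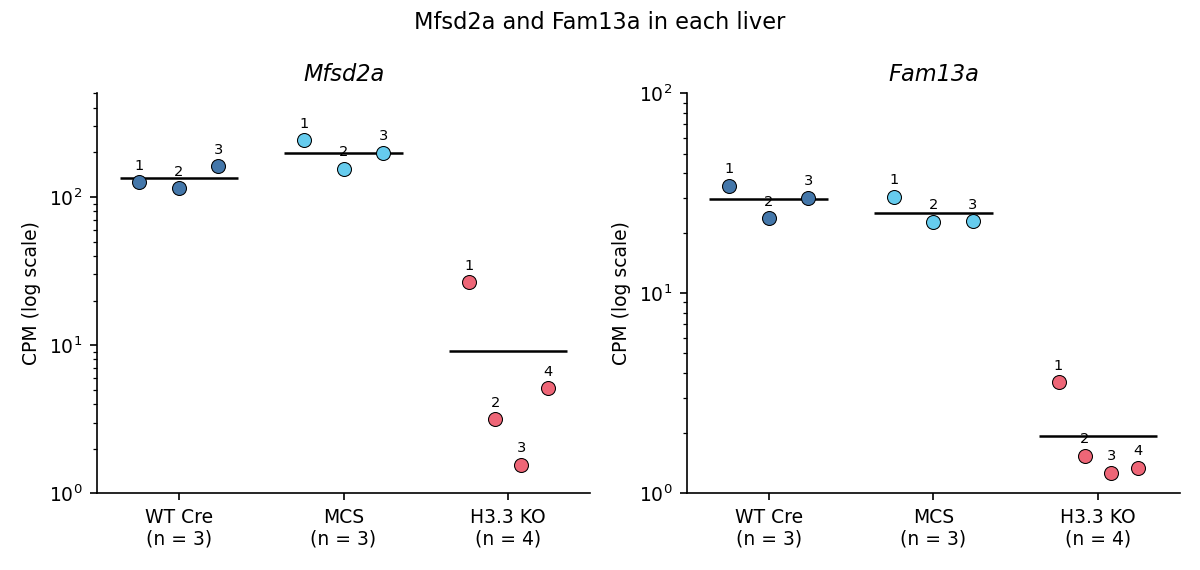
CPM of Mfsd2a and Fam13a in each of the 10 livers on a log axis, with the replicate number beside each point and a line at each group mean. All 4 KO livers lie below all 6 controls for both genes, and KO 1 is the highest of the KO livers, at 26.6 CPM for Mfsd2a and 3.58 CPM for Fam13a.

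The selection used these contrasts, so nothing is read from the ranks of the genes in them. Genes were called where the edgeR adjusted p was under 0.05 and the absolute log2 fold change was over 1. Of all genes tested, 5.79% were called lower in KO against the 6 controls (1300 genes), and in 12.0% every KO liver lay below every control. The share called lower was 5.33% against WT Cre and 5.54% against MCS, comparisons that share the KO livers. No call is given for Mfsd2a or Fam13a in these contrasts, since the selection fixed it. By log2 fold change Mfsd2a was the 54th and Fam13a the 71st lowest of all genes tested against the 6 controls.

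The deposited FPKM table, which divides by gene length, gave the same order of the KO livers. Mfsd2a was at 44.4, 42.9, 61.9, 78.7, 50.6 and 64.2 FPKM in WT Cre 1 to 3 and MCS 1 to 3, and at 11.4, 1.27, 0.754 and 1.95 FPKM in KO 1 to 4. Fam13a was at 4.67, 3.302, 4.42, 3.94, 3.00 and 2.66 FPKM in the same controls and at 0.487, 0.231, 0.166 and 0.195 FPKM in KO 1 to 4. Per length, Mfsd2a was thus above Fam13a in every liver, and the control means were 57.1 ± 13.7 and 3.67 ± 0.806 FPKM (SD, n = 6). On this scale KO 2 to 4 kept 2.23%, 1.32% and 3.41% of the control mean of Mfsd2a, and KO 1 kept 13.3% of that of Fam13a.

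In bulk tissue, fewer cells of a type and less RNA per cell cannot be told apart. The hepatocyte markers had smaller changes than the selected genes, which were chosen for their near-full loss, so nothing is read from this difference. Of 15 hepatocyte markers tested, edgeR called 3 lower and 0 higher (0 higher also by DESeq2, and 0 at an unadjusted p under 0.05). By the edgeR adjusted p without the fold required, 11 of the 15 were lower. The median log2 fold change was -0.78, and without KO 1 there were 7 markers called lower. Their summed level was 104729 to 148106 CPM in the controls and 78091 to 93497 CPM in KO, highest in KO 1. Mfsd2a is best known from the endothelium of the blood-brain barrier, and whether liver endothelium expresses it was not tested. Of 10 endothelial markers, 0 were called by edgeR or by DESeq2 (8 had an unadjusted p under 0.05, all higher in KO). Their summed level was 296 to 364 CPM in the controls and 313 to 535 CPM in KO. The counts of called markers are to be read beside the 12.9% of all genes called higher and the 5.79% called lower. By the adjusted p alone, 4429 of all 22449 genes tested were higher and 3726 lower. No share over all genes is given at an unadjusted p, so nothing is read from those counts. Markers of Kupffer cells (7 of 7 called higher, 187 to 361 CPM in the controls and 442 to 957 CPM in KO), leukocytes (6 of 7, 9.15 to 19.8 CPM and 20.9 to 60.8 CPM) and stellate cells (3 of 8, 199 to 258 CPM and 392 to 578 CPM) moved the other way, and 1 of 7 cholangiocyte markers was called higher (49.96 to 80.6 CPM and 71.2 to 88.2 CPM). No marker was at 0 in all livers. KO 1 had the lowest sum of the 4 KO livers for the endothelial, Kupffer, leukocyte and stellate markers. The part of these shifts in the levels of Mfsd2a and Fam13a was not tested.

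KO 1 stood nearer to the controls than the other KO livers for most genes that changed. It was the highest of the 4 KO livers in 759 of the 1300 genes called lower (58.4%), against 203, 189 and 149 genes for KO 2 to 4. It was the lowest in 2057 of the 2899 genes called higher (71.0%). Among the 521 genes called lower with a control mean of at least 5 CPM, the median share of the control mean kept was 51.0%, 38.2%, 36.5% and 28.6% in KO 1 to 4. The level in KO 1 over the mean of KO 2 to 4 had a median of 1.48 over these genes. It was 8.12 for Mfsd2a, the 6th highest of them, and 2.59 for Fam13a, the 62nd. This is a description, since retention in KO 1 entered the selection.

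**Figure D2:**
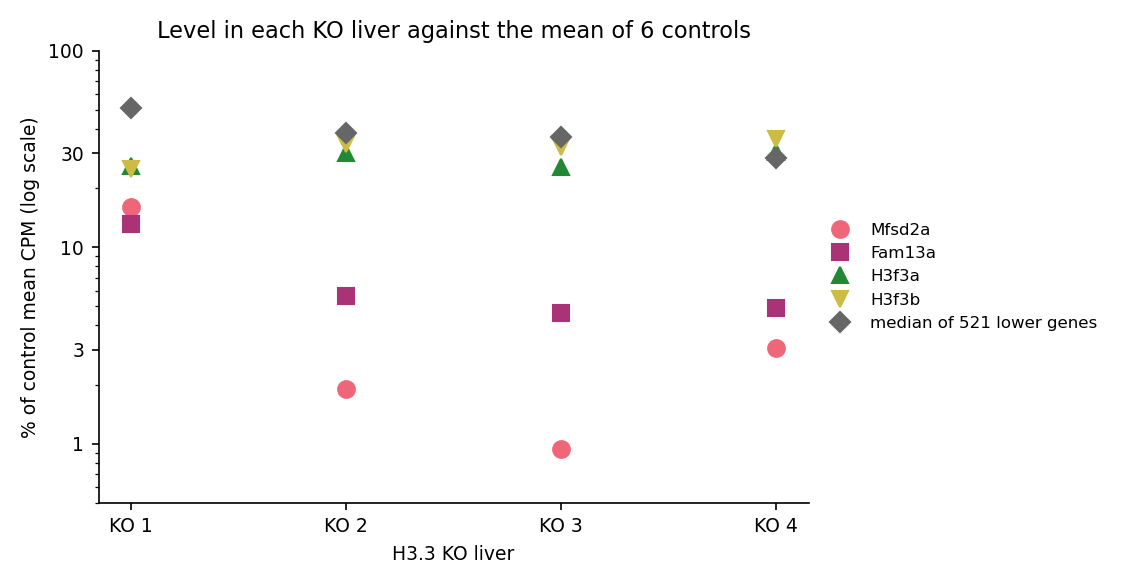
Share of the control mean CPM kept in each KO liver, on a log axis, for Mfsd2a, Fam13a, the targeted genes H3f3a and H3f3b, and the median of the 521 genes called lower with a control mean of at least 5 CPM. Mfsd2a falls from 16.0% in KO 1 to between 0.939% and 3.09% in the other livers, whereas H3f3a and H3f3b lie between 24.9% and 35.4% in all 4. All levels are of whole liver, so they include cells other than hepatocytes.

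The controls were compared with each other to ask whether the floxed alleles without Cre differ from Cre virus without floxed alleles, and the selection did not use this contrast. Of all genes tested, 0.641% were called (67 higher in WT Cre and 77 lower), and neither Mfsd2a nor Fam13a was among them. Mfsd2a was lower in WT Cre by a log2 change of -0.56 (SE 0.851, 95% interval -2.23 to 1.10, edgeR adjusted p 0.902), and the kinds of control overlapped, since MCS 2 lay below WT Cre 3. The fit shares its spread with the KO livers, and without KO 1 the edgeR adjusted p was 0.508. The exact two-sided permutation test of the log2 CPM gave p = 0.2 (n = 3 each), where the smallest p it allows is 0.1. Fam13a differed by 0.22 (SE 0.291, 95% interval -0.35 to 0.79, edgeR adjusted p 0.88), with an exact permutation p = 0.3 (n = 3 each), and its groups overlapped too.

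The ratio of the 2 genes within a liver needs no normalization between libraries. In CPM it was 3.65, 4.83 and 5.35 in WT Cre 1 to 3 and 7.92, 6.80 and 8.67 in MCS 1 to 3, so that the kinds of control did not overlap. The ratio was 1.70 times higher in MCS, and the exact two-sided permutation test gave p = 0.1 (n = 3 each), the smallest it allows, for a measure chosen after its values were seen. In KO 1 to 4 the ratio was 7.44, 2.05, 1.23 and 3.83. KO 1 thus lay within the range of the MCS controls, and KO 2 and KO 3 lay below every control. Spread within the controls was wider for Mfsd2a than for Fam13a, with a coefficient of variation of 28.3% and 18.0% over the 6 livers. The median over 9504 genes with a control mean of at least 5 CPM was 11.2%.

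None of the 3 closest relatives of these genes was called by edgeR or passed its adjusted p. Mfsd2b, an exporter of sphingosine-1-phosphate in blood cells, stood at 0.52 to 1.21 CPM in the controls and at 0.195, 0.633, 1.10 and 0.803 CPM in KO 1 to 4. Its log2 fold change was -0.16 (edgeR adjusted p 0.761), and the sign flips with library size scaling alone (0.021) and without KO 1 (0.091). Fam13b stood at 10.8 to 17.6 CPM in the controls and at 15.9, 17.6, 14.2 and 15.4 CPM in KO 1 to 4 (log2 change 0.26, edgeR adjusted p 0.143), and it passed the adjusted p with library size scaling (0.0369) or without WT Cre 3 (0.0206). Fam13c held 1 to 11 counts in a control liver, at 0.0407 to 0.459 CPM in the controls (log2 change 0.56, edgeR adjusted p 0.42).

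The genes around Mfsd2a did not share a direction. Within 500 kb on either side, 16 genes were tested, 2 were called lower and 5 higher, against a background of 5.79% and 12.9% of all genes. 4933421A08Rik, a processed transcript on the plus strand that starts 121 bases from the start of Mfsd2a in the opposite direction, lies with its own start inside the promoter window printed above. It fell from 0.912 ± 0.273 CPM (SD, n = 6) to 0.261, 0, 0.0843 and 0.0765 CPM in KO 1 to 4, with 7 to 29 counts in each control and 0 to 4 counts in each KO liver (log2 change -3.26, SE 0.538, edgeR adjusted p 0.000492). KO 1 was again the highest KO liver, at this low depth with 4 counts, and without it the log2 change was -3.98. Mycl, a MYC family transcription factor that starts 34.5 kb away on the same side, fell from 7.71 ± 1.61 CPM (SD, n = 6) to 5.34, 2.10, 2.49 and 1.42 CPM in KO 1 to 4 (log2 change -1.48, edgeR adjusted p 0.00301), also with the highest value in KO 1. Cap1, an actin regulator and the nearest tested gene on the other side, had a log2 change of 0.17 (edgeR adjusted p 0.196), and it passed the adjusted p with library size scaling (0.027).

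Farther on the side of Mycl the called genes rose. Bmp8b, a secreted ligand of the bone morphogenetic protein family, held 0 to 3 counts in each control and 1.56, 4.59, 12.3 and 21.5 CPM in KO 1 to 4, at least 75.1-fold higher when each control is set to a floor of 3 counts (edgeR adjusted p 0.000167). Without KO 4 this bound was 46.4-fold. Oxct2b and Gm17244 lie inside Bmp8b and were called higher from at most 8 and 15 counts in a KO liver, so their reads cannot be told apart from those of Bmp8b. Heyl, a transcription factor induced by Notch signalling, rose from 1.99 ± 0.488 CPM (SD, n = 6) to 4.04, 4.07, 4.38 and 9.52 CPM in KO 1 to 4 (log2 change 1.47, edgeR adjusted p 0.00106). Bmp8a, a relative of Bmp8b, was called higher from KO 4 alone, which held 65 counts or 2.49 CPM, while KO 1 to 3 stood at 0, 0.0395 and 0.0843 CPM. Without KO 4 the number of called neighbours was 4 in place of 7, and Gm17244, Oxct2b and Bmp8a were then not tested. Gm17244 also missed the adjusted p without WT Cre 1, WT Cre 3, MCS 1 or MCS 2 (0.0553 to 0.0576), and Bmp8a without MCS 3 (0.152) or with no filter on low counts (0.0584).

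Around Fam13a, 5 genes were tested and edgeR called 0 of them, as did DESeq2, beside 5.79% called lower and 12.9% called higher among all genes. With 5 genes nothing is read from this count. Of the 5 genes, 2 had an unadjusted p under 0.05, for which no share over all genes is given. Herc3 and Tigd2 are the nearest tested genes on either side. Herc3, a HECT domain ubiquitin ligase, had a log2 change of -0.41 (edgeR adjusted p 0.227), and it passed the adjusted p without MCS 3 (0.00694). Tigd2, a gene derived from a DNA transposase, fell from 10.4 ± 0.507 CPM (SD, n = 6) to 6.71, 5.42, 5.18 and 5.43 CPM in KO 1 to 4, a log2 change of -0.87 (edgeR adjusted p 9.15e-05) that stayed under the fold required for a call. Abcg2, an efflux transporter of the hepatocyte, named after its values were seen, stood at 79.2 to 125 CPM in the controls and at 83.5, 33.8, 37.8 and 36.9 CPM in KO 1 to 4. KO 1 lay within the control range and the other 3 livers lay below it. Its log2 fold change was -0.93 (edgeR adjusted p 0.0145, and 0.057 without KO 4), and without KO 1 it was -1.34 and passed the adjusted p and the fold (edgeR adjusted p 9.55e-06).

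**Figure D3:**
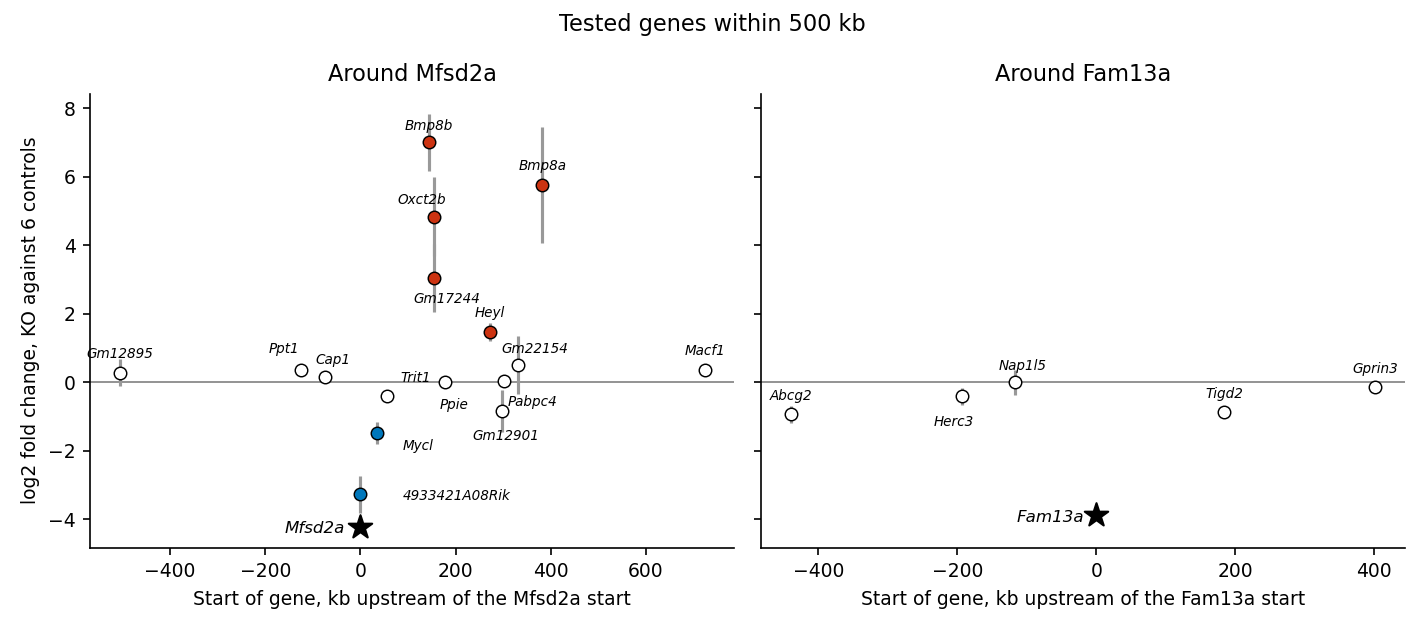
Log2 fold change of KO against the 6 controls for the tested genes within 500 kb of Mfsd2a (16 genes) and Fam13a (5 genes), against the distance between gene starts in kb. Bars are standard errors, red and blue mark genes called higher and lower, and the star is the selected gene, shown without a test. Beside the star of Mfsd2a lies 4933421A08Rik at -3.26, and the called genes beyond Mycl lie above 0.

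Genes whose pattern over the 10 livers was most like each selected gene were ranked by the root mean square (RMS) difference of the log2 CPM relative to the control mean, among 9504 genes with a control mean of at least 5 CPM. The 6 closest to Mfsd2a were Mup-ps16 (RMS of 0.821), Dct (0.821), Gm4956 (0.836), Gm13775 (0.965), Fam13a (0.968) and Gm27216 (1.01). Fam13a was thus the 5th closest gene to Mfsd2a, whereas Mfsd2a was the 37th closest to Fam13a. Mup-ps16, a pseudogene of the major urinary protein family whose reads may come from close copies, stood at 3.69 to 7.94 CPM in the controls and at 2.15, 0.0791, 0.0843 and 0.0765 CPM in KO 1 to 4. Dct, dopachrome tautomerase of melanin synthesis, stood at 2.13, 2.13 and 2.94 CPM in WT Cre 1 to 3 and at 9.20, 7.95 and 13.4 CPM in MCS 1 to 3. It was thus called lower in WT Cre than in MCS (log2 change -2.08, edgeR adjusted p 0.0135), and it was at 0.195 CPM in KO 1, 0 in KO 2 and KO 3 and 0.0382 CPM in KO 4. The transcripts Gm13775 and Gm27216 stood in KO 1 at 7.56 and 7.23 CPM and in KO 2 to 4 at no more than 0.716 and 0.988 CPM. Gm4956, an annotated pseudogene, stood at 8.01 CPM in KO 1 and at 0.759 to 1.82 CPM in KO 2 to 4.

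The 6 genes closest to Fam13a followed it more tightly. They were Abcc3 (RMS of 0.415), BC024139 (0.423), Wfdc2 (0.511), Ildr2 (0.512), Gm32063 (0.513) and Sult1c2 (0.519). Abcc3, the basolateral efflux pump for bile acids and conjugates, stood at 427, 316 and 353 CPM in WT Cre 1 to 3, at 288, 238 and 261 CPM in MCS 1 to 3, and at 37.99, 25.6, 26.2 and 29.1 CPM in KO 1 to 4. KO 1 was the highest KO liver for all 6. Sult1c2, a sulfotransferase, stood at 4.25 to 6.92 CPM in the controls and at 0.717, 0.316, 0.295 and 0.0382 CPM in KO 1 to 4, and Ildr2, an immunoglobulin-like membrane protein, stood at 15.5 to 37.8 CPM and at 4.82, 1.19, 1.69 and 1.95 CPM. Wfdc2, a secreted protein of the whey acidic protein family, stood at 2.63 to 10.7 CPM and at 0.717, 0.633, 0.253 and 0.382 CPM. These genes were chosen for their likeness over the same livers, so their fall is not a separate result.

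**Figure D4:**
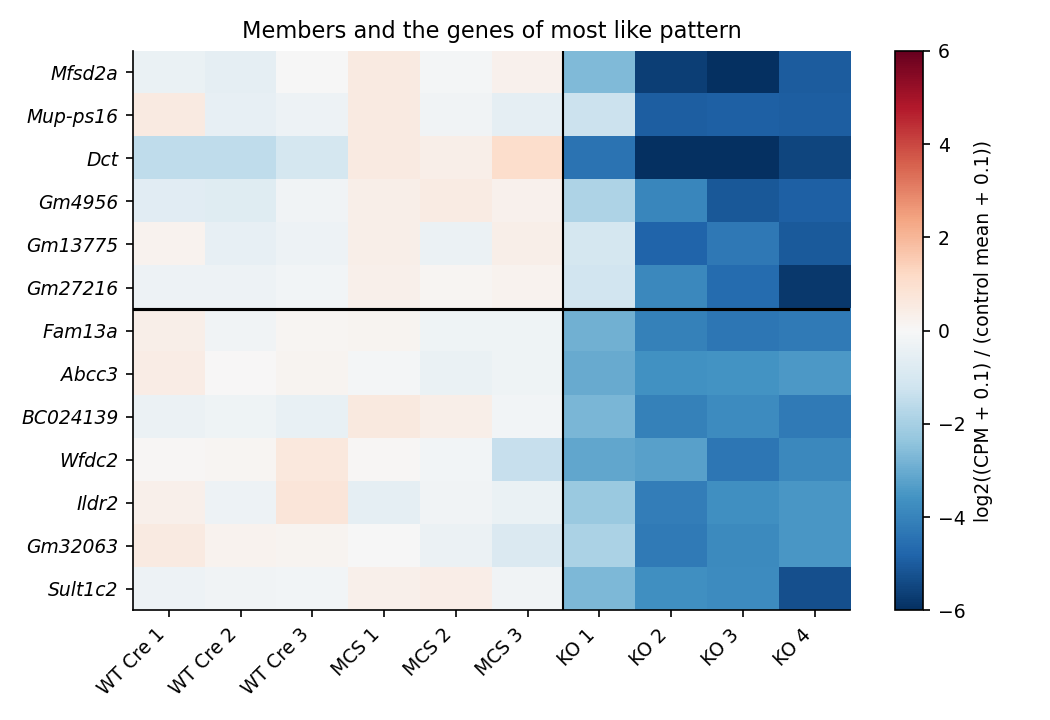
Log2 ratio of each liver's CPM to the control mean (0.1 CPM added to both) for Mfsd2a with its 5 closest genes other than Fam13a, and for Fam13a with its 6 closest genes, in WT Cre 1 to 3, MCS 1 to 3 and KO 1 to 4. In every row KO 1 is nearer to the controls than the mean of KO 2 to 4, and the row of Dct differs between WT Cre and MCS.

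Lysophospholipid and phosphatidylcholine genes, the setting in which Mfsd2a works, went both ways. Of 30 tested, 8 were higher and 9 lower by the adjusted p, beside 4429 and 3726 of all 22449 genes. With the fold required 4 were called higher and 1 lower, beside 12.9% and 5.79% of all genes. The calls are thus not read as particular to this list. The median log2 fold change was -0.18 (0.013 with library size scaling) beside -0.0030 over all genes. Chpt1, which makes phosphatidylcholine from CDP-choline, fell from 301 CPM (243 to 341 in the controls) to 224 CPM in KO 1 and to 65.4, 49.6 and 41.2 CPM in KO 2 to 4 (log2 change -1.66, edgeR adjusted p 0.0195). Its adjusted p was 0.0592 without KO 2, and without KO 1 its log2 change was -2.53 (edgeR adjusted p 2.36e-07). Lpcat4 (log2 change 2.08, edgeR adjusted p 0.000105) and Lpcat2 (1.67, 3.42e-05), which reacylate lysophospholipids, rose, from no more than 0.896 and 2.52 CPM in any control. Gdpd1, a lysophospholipase D, rose from 0.741 to 1.77 CPM on average (1.30, edgeR adjusted p 0.0145), and it missed the threshold without KO 4 (0.0777). Spns1, a lysosomal exporter of lysophospholipids, had a log2 change of -0.30 (edgeR adjusted p 0.0153, and 0.377 with library size scaling). Without KO 1 the list had 4 genes called higher and 3 lower.

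Other transporters of the MFSD family went both ways. Of 20 tested, 2 were called higher and 2 lower, beside 12.9% and 5.79% of all genes, so the calls are not read as particular to this list. The median log2 fold change was -0.15 (0.039 with library size scaling). Flvcr2, a choline transporter, rose from 1.79 to 3.69 CPM in the controls to 16.0, 20.96, 21.9 and 15.5 CPM in KO 1 to 4 (log2 change 2.93, edgeR adjusted p 5e-07). Mfsd7a rose from 4.11 ± 1.30 CPM (SD, n = 6) to 10.4, 18.5, 17.5 and 7.38 CPM in KO 1 to 4 (log2 change 1.70, edgeR adjusted p 0.00133). Mfsd4b1 fell by 1.36 in log2 (edgeR adjusted p 0.000135), and Mfsd8, a protein of the lysosomal membrane, by 1.01 (5.36e-05). The call of Mfsd8 sat at the fold required, and its log2 change was between -1 and -0.83 with DESeq2, with every other scaling or filter and without WT Cre 3, MCS 3, KO 2, KO 3 or KO 4, which left 3 calls in the list. Mfsd1, a lysosomal dipeptide transporter, had a log2 change of -0.47 (edgeR adjusted p 0.00264, and 0.0557 with library size scaling).

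Genes of the fasting response, under which liver Mfsd2a is known to rise, were mostly lower where they passed the adjusted p. Of 27 genes of PPARA and its fasting targets, 14 were lower and 3 higher by it, beside 3726 and 4429 of all 22449 genes. With the fold required 5 were called lower and 1 higher, beside 5.79% and 12.9% of all genes. The median log2 change was -0.61, and without KO 1 the called counts were 8 and 1. The part of these changes in the level of Mfsd2a was not tested. Fgf21, a hepatocyte hormone of fasting, stood at 1.51 to 10.3 CPM in the controls and at 1.56, 0.277, 0.379 and 0.153 CPM in KO 1 to 4 (log2 change -3.49, edgeR adjusted p 0.0041). Vnn1, a pantetheinase, stood at 27.4 to 96.5 CPM in the controls and at 27.2, 2.89, 3.96 and 1.84 CPM in KO 1 to 4 (log2 change -2.89, edgeR adjusted p 0.03), and its adjusted p was 0.0756, 0.08 and 0.0682 without KO 2, KO 3 or KO 4, 0.0514 without WT Cre 2 and 0.0516 with no filter on low counts. Without KO 1 the log2 change of Vnn1 was -4.48 and that of Fgf21 was -4.46. Fabp1, the liver fatty acid binding protein, stood at 3702 to 5444 CPM and at 1566, 660, 618 and 356 CPM (log2 change -2.44, edgeR adjusted p 0.0004). KO 1 was the highest KO liver for these 3 genes, as for Mfsd2a and for 58.4% of all genes called lower (ties included). Acot2, a mitochondrial acyl-CoA thioesterase, rose from 3.04 to 7.30 CPM in the controls to 25.998, 37.1, 59.8 and 94.8 CPM (log2 change 3.40, edgeR adjusted p 9.32e-05). Ppara itself had a log2 change of -0.39 (edgeR adjusted p 0.0488, and 0.0216 to 0.26 over the alternatives), and Rxra, its partner, fell by 0.78 in log2 (edgeR adjusted p 9.63e-05), under the fold for a call.

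Of 24 genes of the glucagon, FOXO and glucocorticoid response, 7 were lower and 2 higher by the adjusted p, beside 3726 and 4429 of all 22449 genes. With the fold required 3 were called lower and 1 higher, beside 5.79% and 12.9% of all genes. The median log2 change was -0.29. Sds, serine dehydratase, fell by 1.94 in log2 (edgeR adjusted p 0.000658), and G6pc, the last enzyme of gluconeogenesis, fell by 1.71 (4.09e-05). Tat, tyrosine aminotransferase, fell by 1.05 (edgeR adjusted p 0.0231) and missed the threshold without KO 1 (0.064), without KO 2 (0.0507) or without KO 3 (0.0572), or with no filter on low counts (0.0755). Its log2 change was within the fold required with library size scaling (-0.84), without MCS 1 (-0.98), without MCS 3 (-0.85) and without KO 1 (-0.87). Sik1, a kinase gene induced by cAMP, stood at 9.29 to 28.1 CPM in the controls and at 27.7, 99.5, 126 and 235 CPM in KO 1 to 4 (log2 change 2.84, edgeR adjusted p 0.00401), so that KO 1 lay within the control range. Gcgr, the glucagon receptor, fell by 0.65 (0.00392), and Nr3c1, the glucocorticoid receptor, by 0.43 (0.00368, and 0.0705 with library size scaling), both short of the fold for a call. In this list Sds was also lower in WT Cre than in MCS, at 153 and 326 CPM on average (log2 change -1.09, edgeR adjusted p 0.0044), so the kinds of control were not equal in these genes. Per list, 2 genes were called between the controls here, 1 each in the PPARA and lysophospholipid lists, and 0 in the other 3 lists by edgeR or DESeq2 (3, 2 and 3 genes at an unadjusted p under 0.05 in the MFSD, clock and FAM13A lists).

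Of 20 circadian clock genes, 2 were called higher and 1 lower, beside 12.9% and 5.79% of all genes. Their median log2 change was 0.26. Ciart (log2 change 2.24, edgeR adjusted p 0.0215, and 0.0504 without KO 2) and Usp2 (1.18, 0.00688) rose, and Nfil3, a repressor of the clock output, fell by 2.02 in log2 (0.000463). Arntl and Clock, the core activators, had log2 fold changes of -0.57 and 0.26 (edgeR adjusted p 0.0589 and 0.14). Arntl passed the adjusted p without MCS 1 (0.0373) or without KO 3 (0.0252), and Clock with library size scaling (0.0255) or without KO 1 (0.0235). Per1, Dbp and Nr1d1, further clock genes, were named after their values were seen. Per1 stood at 12.8 CPM in KO 1 and at 58.3, 56.3 and 70.5 CPM in KO 2 to 4, and at 15.1 to 60.5 CPM in the controls. Dbp stood at 84.9 CPM in KO 1 and at 43.8, 35.1 and 19.0 CPM in KO 2 to 4, and at 11.1 to 49.8 CPM in the controls. Nr1d1 stood at 116, 86.7, 75.3 and 31.9 CPM in KO 1 to 4 and at 67.6 to 139 CPM in the controls, so that KO 4 was the liver outside the control range. The part of these differences in the levels of Mfsd2a was not tested.

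Of 26 genes listed as relatives of FAM13A or of the RHOA and beta-catenin pathway, edgeR called 0 higher and 1 lower (DESeq2 also 0 and 1, and 4 higher at an unadjusted p under 0.05), with a median log2 change of 0.10. The gene that fell was Glul, glutamine synthetase of the hepatocytes around the central vein, from 769 to 1138 CPM in the controls to 509, 384, 378 and 267 CPM in KO 1 to 4 (log2 change -1.37, edgeR adjusted p 8.14e-05). Over all 6 lists the shares of genes called are to be read beside the 5.79% called lower and the 12.9% called higher among all genes.

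**Figure D5:**
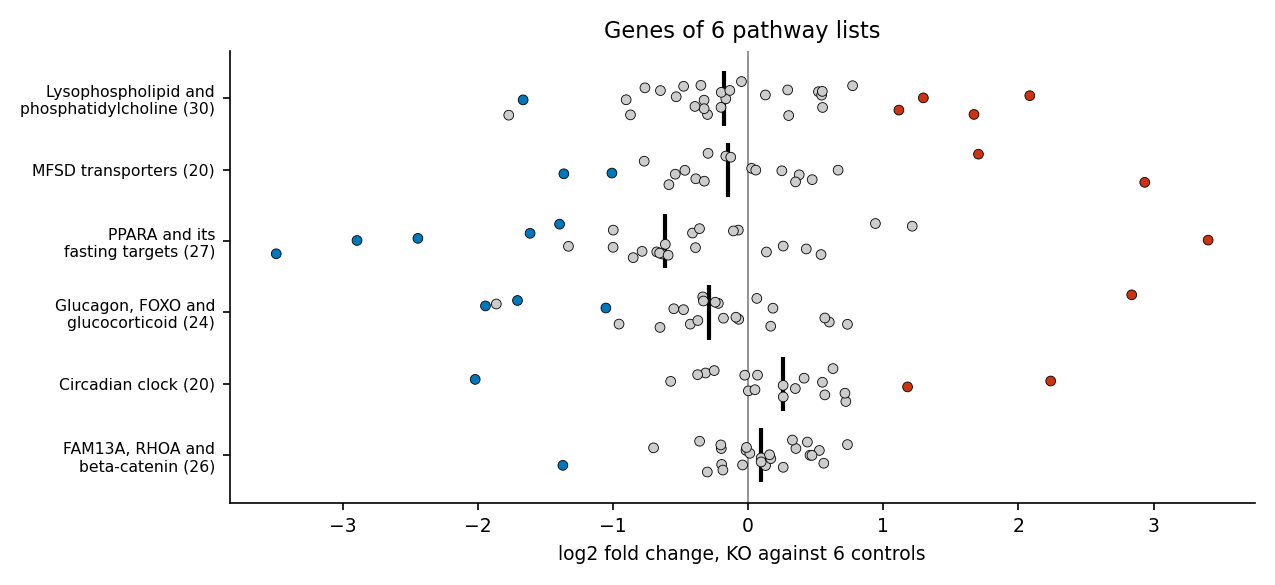
Log2 fold change of KO against the 6 controls for the tested genes of 6 pathway lists (the number tested in parentheses), with red and blue for genes called higher and lower, grey for the rest and a bar at the median. The median of the PPARA list lies at -0.61 and those of the other lists between -0.29 and 0.26. With library size scaling the medians of the lysophospholipid and MFSD lists would stand at 0.013 and 0.039.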

How the data were processed

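Whole-liver RNA of 10 mice was sequenced. Per the study's methods, the authors trimmed reads with Trim Galore, aligned them to mm10 with STAR and counted reads per gene with HOMER, and deposited a table of raw counts. The submitters' processing notes also name HTSeq and Cufflinks without a role, and the tool behind the deposited FPKM table is not given in the sources used here. The library kit keeps strand, but the strand used in counting and the treatment of multimapped reads are not given in the sources used here, so genes with close copies or overlapping genes are uncertain. Files were matched to GENCODE M21 (mm10) by gene identifier without its version, and 55154 of 55421 matched.

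The selected genes and all gene lists were chosen with earlier results of these data known. Genes with at least 10 counts over the 10 livers were tested with the quasi-likelihood test of edgeR 4.0.16 (R 4.3.3), with TMM normalization, no covariates and Benjamini-Hochberg adjustment over all genes. KO against 6 controls was a fit of 2 groups, and the other comparisons came from fits of 3 groups that share 1 dispersion. Log2 CPM used a prior count of 2. Alternatives were DESeq2 1.42.0, RLE scaling, library size scaling, filterByExpr, no filter, a replicate block, log2(FPKM + 1) and log2(FPKM + 0.1), and leaving out each liver. The named genes were the selected genes, the targeted genes, 3 relatives, overlapping genes, called or nearest tested genes within 500 kb, the 6 most alike per gene, and per list the first 2 tested and up to 4 called with the largest change. Replicates were all distinct libraries, with chi-square values of 10.3 to 96.7 per degree of freedom between their counts.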

Additional observations from a re-analysis of the deposited data

Results flagged for a closer look

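Dixon's test was run on the CPM of each named gene in the 4 KO livers and in the 6 controls, 116 groups in all, and 20 had a lowest or highest liver far from the others. About 1 in 20 groups would do so by chance if they were independent. These groups share the same livers, and some rest on 1 count, so 20 of 116 is not measured against that share. KO 1 was the liver far from the others 13 times. It stood above the other KO livers for Mfsd2a (26.6 CPM), Fam13a (3.58), Chpt1 (224), Fgf21 (1.56), Vnn1 (27.2), Tigd2 (6.71), Mup-ps16 (2.15), Gm4956 (8.01), Gm13775 (7.56), Gm27216 (7.23) and Gm32063 (2.15). The selection fixed this for Mfsd2a and Fam13a, and likeness to them fixed it for Mup-ps16, Gm4956, Gm13775, Gm27216 and Gm32063, so these 7 values are a description. Without the KO values of the selected and most alike genes, 13 of 103 groups had such a liver, and it was KO 1 in 6 of them. Gm45060 and BB365896 stood out in KO 1 on 1 count each (0.0652 CPM).

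KO 4 stood above the other KO livers for Heyl (9.52 CPM) and Bmp8a (2.49 CPM). Among the controls, WT Cre 3 was highest for Fam13b (17.6 CPM) and BB365896 (0.119 CPM), WT Cre 2 was lowest for Rxra (362 CPM), WT Cre 1 was highest for Gm45060 (0.0417 CPM), and MCS 3 was highest for Bmp8a (0.0559 CPM). The last 2 rest on 1 count.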

How the results depend on the processing

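Mfsd2a and Fam13a kept their direction in KO against the 6 controls under every alternative run. The log2 fold change of Mfsd2a ran from -5.65 (without KO 1) to -3.84 when 1 liver was left out, and that of Fam13a from -4.31 to -3.71. With log2(FPKM + 1) the change of Fam13a shrank to -1.87, since a pseudocount of 1 is large beside its FPKM values, and with log2(FPKM + 0.1) it was -3.40. The number of genes called between WT Cre and MCS was 144, with 314 by DESeq2, 221 with the replicate block and 66 to 259 when 1 liver was left out, and neither selected gene was called in any of these, the cause of the differing counts being not tested. The neighbours of Mfsd2a called numbered 7, with 4 under filterByExpr, 4 with the replicate block and 4 to 7 when 1 liver was left out. Those of Fam13a numbered 0, and 0 to 1 when 1 liver was left out. The log2 fold change of Mfsd2b turned from -0.16 to 0.021 with library size scaling and ran from -0.45 to 0.091 (without KO 1) when 1 liver was left out, and the cause was not tested. Library size scaling moved the median over all genes to 0.17 and the share of called genes that were higher from 69.0% to 79.3%. Of 54 named genes besides the selected ones, 34 stayed on their side of the adjusted p in all alternatives run, 14 lost it and 5 gained it in at least 1, and Mfsd2b changed sign. With a prior count of 0.5, chosen after seeing the data, 5 of the 6 most alike genes were shared for each selected gene. It was not settled whether same-numbered livers pair. Only 3 of 9 correlations of their deviations were above 0.1 (-0.12 to 0.20), while 7 of 9 livers correlated best with their own number. The replicate block gave -4.62 for Mfsd2a and -3.78 for Fam13a and moved the genes called in KO against the 6 controls from 4199 to 3335. With the block the adjusted p was 0.0671 for Vnn1, 0.0845 for Ciart, 0.0818 for Gdpd1, 0.0516 for Tat, 0.0901 for Ppara, 0.29 for Gm17244, 0.055 for Oxct2b and 0.249 for Bmp8a, and the log2 change of Mfsd8 was -0.98. Depth limits Fam13a in KO, which rests on 30 to 55 counts, and 4933421A08Rik, which rests on 0 to 4.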
